A study of Rattus norvegicus with 4 samples.

Results

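The sodium pump (Na,K-ATPase) is the membrane enzyme that spends ATP to carry sodium out of the cell and potassium into it. Described here are the 7 genes Atp1b1, Atp1b2, Atp1b3, Fxyd1, Fxyd5, Fxyd6 and Fxyd7, which are 3 β subunits of the pump and 4 FXYD proteins that bind to it. They were taken by gene name from the 32883 genes counted in rat carotid bodies (CBs), and each name matched 1 row. The CB is the small organ at the carotid artery bifurcation whose glomus cells sense oxygen in arterial blood. RNA was sequenced from whole CBs of Sprague Dawley rats with no named treatment, at day 5 (neonates) and at day 21 (called adults by the study, although this is around weaning), with 2 libraries per age. Each neonatal library held the pooled CBs of 6 pups and each adult library those of 3 rats according to the series text, while the methods of the study describe larger pools and more replicates, and 4 libraries were analysed here.

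A working pump needs a catalytic α subunit and a β subunit. The α subunit binds ATP and the ions, and the β subunit is a glycoprotein that the α subunit needs to fold and to reach the cell surface. FXYD proteins are short single-pass membrane proteins, named after a shared run of amino acids. Several of them tune the affinity of the pump for sodium, potassium or ATP. In excitable cells such as glomus cells and neurons the pump rebuilds the ion gradients after electrical activity, which makes it a large user of ATP.

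Of the 7 genes, Atp1b1 and Fxyd7 were higher in neonates (1.69-fold and 1.64-fold), Fxyd1 was higher in adults (1.24-fold), and Fxyd5 was higher in neonates (1.26-fold) in a call that depended on the scaling and on single libraries. Atp1b2, Atp1b3 and Fxyd6 did not pass the test. All 7 were well above the level needed for testing, and none changed by 2-fold. Summed over the 7 genes, the level was 1005 and 985 CPM (counts per 1000000 counts of the library) in the neonatal libraries and 1095 and 987 CPM in the adult libraries.

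The CPM given are estimated counts divided by the total of the library. Log2 fold changes are neonate over adult from edgeR's quasi-likelihood test with TMM normalization, which rescales the libraries to each other, and adjusted p are Benjamini-Hochberg values over the 13843 genes tested. TMM factors were 0.902 and 0.935 for the neonatal libraries and 1.08 and 1.10 for the adult libraries, so that log2 fold changes lie above those of plain CPM, and scaled to library size alone the median of all genes moved from -0.0029 to -0.25. Totals ran from 36286191 to 39476110 per library, and mitochondrially encoded genes took 18.7% and 15.6% of them in neonates and 9.06% and 9.08% in adults, whose part in the results was not tested beyond the scalings tried. Member counts ran from 522 to 15510, for which counting error alone is at most 4.38%. The chi-square of the replicates' counts, over its degrees of freedom, was 32.6 for neonates and 15.4 for adults, where counting noise gives about 1, and p-values measure the spread between these pools. Per the methods of the study, the day 21 rats were the part of the litter left to grow after pups were taken at day 5, so the ages share litters. Which pools shared a litter is not given in the sources used here. With 2 libraries against 2, an exact permutation test of a single value cannot give a p under 0.333.

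Glomus cell markers were present in all 4 libraries, with tyrosine hydroxylase (Th) at 917 and 781 CPM in neonates and 1517 and 1242 CPM in adults, and none of the 15 markers listed was at 0 in a library. Other tissue was present too. The parathyroid markers Pth, Gcm2 and Casr summed to 1616 CPM in the first neonatal library (neonate replicate 1) and 197 CPM in the second, with Pth and Gcm2 at 0 in both adult libraries. Markers of red blood cells (7 genes) summed to 11665 and 6869 CPM in neonates and to 3040 and 2691 CPM in adults. In whole tissue, fewer cells of a type and less RNA per cell cannot be told apart.

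**Figure D1:**
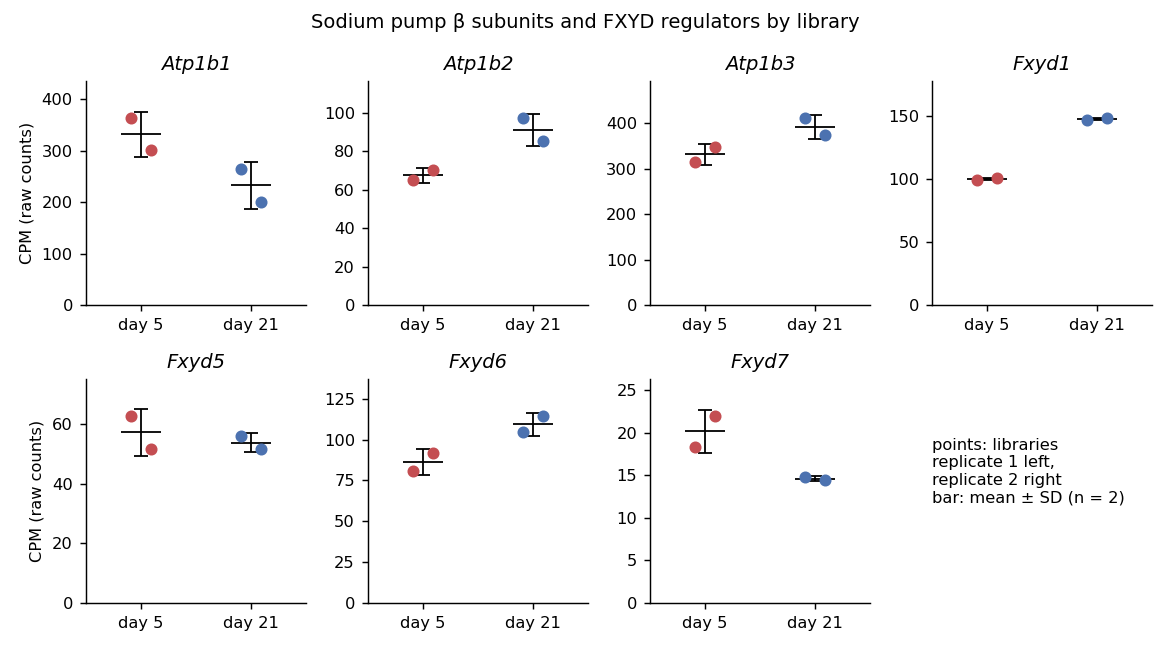
CPM of the 7 genes in each library, with 1 panel per gene, points for the libraries of day 5 (red) and day 21 (blue) and bars for the mean ± SD of the 2 libraries. The ages overlap only for Fxyd5, and the replicates lie closest together for Fxyd1, near 100 CPM at day 5 and near 147 CPM at day 21.

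Among the β subunits, Atp1b1 (ENSRNOG00000002934) encodes the subunit that accompanies the pump in most tissues. Its level was 363 and 300.5 CPM in neonate replicates 1 and 2 and 265 and 200.2 CPM in adult replicates 1 and 2. Both neonatal libraries lay above both adult libraries, and within each age replicate 1 was the higher one. The log2 fold change was 0.76 (standard error 0.15, adjusted p = 0.0020 by edgeR's quasi-likelihood test), with a 95% interval of 0.42 to 1.09. In the RefSeq table Atp1b1 overlaps its neighbour Nme7, and whether the counting used strand is not given in the sources used here.

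Atp1b3 (ENSRNOG00000011501), a broadly expressed β subunit, had 316 and 348 CPM in neonates and 411 and 373 CPM in adults. The plain CPM of the ages did not overlap, but after TMM normalization they did, with 0.0039 on the log2 scale (standard error 0.090, adjusted p = 0.97 by edgeR), with an interval of -0.20 to 0.21. Scaled to library size alone it was -0.24 (adjusted p = 0.056 by edgeR), so no direction can be given for Atp1b3. Its count in adult replicate 1 is not whole, so that some of its reads were shared out between features by the authors' estimate.

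Atp1b2 (ENSRNOG00000011227) encodes the β subunit also known as the adhesion molecule on glia, which glial cells use both for the pump and for contact with neurons. It had 64.9 and 70.2 CPM in neonates and 97.2 and 85.2 CPM in adults, with both adult libraries on top. The change of -0.19 on the log2 scale (standard error 0.094, adjusted p = 0.11 by edgeR) did not pass the test, and its interval of -0.40 to 0.02 allows a fall of the neonatal level by up to 0.40 on the log2 scale. By library size alone it passed, at -0.43 (adjusted p = 0.0046 by edgeR).

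Within a library, the ratio of reads of one gene to those of another does not depend on the scaling, and since the gene lengths stay the same it can be compared between ages, though not between pairs of genes. Reads of Atp1b1 per read of Atp1b3 were 1.15 and 0.864 in neonates and 0.646 and 0.537 in adults, 1.69-fold higher in neonates on average. The ages were apart here (exact permutation p = 0.333, the smallest possible). Reads of Atp1b2 per read of Atp1b3 moved the other way and by less, from 0.206 and 0.202 in neonates to 0.237 and 0.228 in adults. Relative to Atp1b3, Atp1b1 was thus higher and Atp1b2 lower in both neonatal libraries.

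Sequences before the transcription start are shown for 2 β subunits that did not pass the test and for 2 FXYD genes, Fxyd1 and Fxyd5. These 2 FXYD genes lie near each other and were called in opposite directions with TMM, although Fxyd5 did not pass by library size alone. A RefSeq promoter sequence (assembly GRCr8, another assembly than the one used for the counts) was found for 5 of the 7 genes. Each window is the 150 bases before the annotated start, on the gene's strand, here the minus strand, and for Fxyd5, with 2 starts listed, the one further upstream. Capitals mark a match, on either strand, to one of 6 motifs that do not overlap each other here. They are the TATA box with the letters TATAAA, the GC box with GGGCGG and the CCAAT box. The others are the hypoxia response core with ACGTG, the cAMP response half-site with TGACG, and the palindromic E-box with CAGCTG.
Atp1b2, chr10:54823709-54823858: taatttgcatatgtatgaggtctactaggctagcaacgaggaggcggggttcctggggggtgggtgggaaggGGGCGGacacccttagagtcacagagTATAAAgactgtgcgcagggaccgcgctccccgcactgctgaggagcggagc
Atp1b3, chr8:105821152-105821301: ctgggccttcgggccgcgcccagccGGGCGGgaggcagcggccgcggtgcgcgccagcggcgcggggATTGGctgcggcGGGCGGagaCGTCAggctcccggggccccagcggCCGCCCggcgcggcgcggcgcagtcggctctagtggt
Fxyd1, chr1:95418581-95418730: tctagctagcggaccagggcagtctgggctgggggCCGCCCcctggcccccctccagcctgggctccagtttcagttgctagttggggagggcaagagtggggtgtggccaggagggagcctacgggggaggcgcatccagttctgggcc
Fxyd5, chr1:95404723-95404872: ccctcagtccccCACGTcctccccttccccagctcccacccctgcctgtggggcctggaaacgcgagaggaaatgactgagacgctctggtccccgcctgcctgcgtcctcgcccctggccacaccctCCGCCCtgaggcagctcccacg

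The window of Atp1b2 has a GC box and, from 52 to 47 bases before the start, a TATA box, which 8.0% of the 33469 RefSeq windows of this length hold, and 60.0% of its bases are G or C. The window of Atp1b3 has no TATA box, 3 GC boxes, a CCAAT box and a cAMP response half-site, and 83.3% of its bases are G or C, against a median of 52.7% over all windows. GC boxes were found in 26.0% of all windows, CCAAT boxes in 23.5% and the cAMP half-site in 13.4%. Fxyd1 and Fxyd5 each hold 1 GC box, and Fxyd5 also holds a hypoxia response core, from 138 to 134 bases before the start, as do 10.8% of all windows. Fxyd6 has an E-box, found in 7.63% of windows, and none of the other motifs. These matches are letters in a window and say nothing about binding.

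Among the FXYD proteins, Fxyd1 (ENSRNOG00000021079) encodes phospholemman, the phosphorylated regulator of the pump best known from heart and skeletal muscle. It had 99.3 and 100.7 CPM in neonates and 146 and 148 CPM in adults. The replicates of each age nearly coincided and the ages were far apart. The log2 fold change was -0.31 (standard error 0.072, adjusted p = 0.0048 by edgeR), with an interval of -0.47 to -0.15. Skeletal muscle markers, as the whole list of 8 genes in the file, summed to 25.0 and 30.3 CPM in neonates and 54.1 and 59.8 CPM in adults. Myh8 was at 0 in every library, and 1 of the 5 tested (Myh3) was lower in neonates. Most of the higher sum in adults lay in Myh3, at 35.9 and 34.6 CPM in adults, with a log2 fold change of -1.76. The other 4 tested did not pass, with Acta1 (0.67) and Mylpf (0.54) toward neonates and Myh4 (-0.60) and Tnnt3 (-0.27) toward adults. The part of these markers in the change of Fxyd1 was not tested. Smooth muscle and pericyte markers summed to 1199 and 1283 CPM in neonates and 2315 and 2508 CPM in adults, with 6 of 10 lower and 2 higher in neonates (7 and 0 by library size alone), and this was not tested either.

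Fxyd7 (ENSRNOG00000021067), known as a brain FXYD protein of neurons, had the lowest counts of the 7 genes. It had 18.4 and 21.9 CPM in neonates against 14.8 and 14.4 CPM in adults, with both neonatal libraries above both adult ones. The log2 fold change was 0.71 (standard error 0.13, adjusted p = 0.0012 by edgeR), with an interval of 0.42 to 0.996.

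Fxyd5 (ENSRNOG00000021062) encodes dysadherin, an FXYD protein with a long extracellular part that is also studied for its effect on cell adhesion. Its CPM were 62.8 and 51.8 in neonates and 56.0 and 51.6 in adults. The ages overlapped, with adult replicate 1 above neonate replicate 2. With TMM the change of 0.34 on the log2 scale (standard error 0.12, adjusted p = 0.035 by edgeR) passed the test. Scaled to library size alone it was 0.09 (adjusted p = 0.51 by edgeR). Without neonate replicate 1 the change of Fxyd5 was 0.17 and did not pass. That library had the most parathyroid RNA, whose part in this was not tested. Fxyd5 also lost its call without adult replicate 1 (0.38) and without adult replicate 2 (0.24).

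Fxyd6 (ENSRNOG00000016412), known as phosphohippolin from brain, had 80.8 and 91.9 CPM in neonates and 105 and 114 CPM in adults. Its plain CPM were higher in both adult libraries, but TMM brought the ages into overlap, at -0.10 on the log2 scale (standard error 0.084, adjusted p = 0.34 by edgeR) and an interval of -0.29 to 0.09. By library size alone Fxyd6 was at -0.34 (adjusted p = 0.013 by edgeR).

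Along chromosome 1 in the RefSeq table the order is Fxyd5, Fxyd7, Fxyd1, Lgi4 and Fxyd3. Members called higher in neonates (Fxyd5 and Fxyd7) and the member called lower (Fxyd1) thus lie next to each other. The call of Fxyd5 depended on the scaling and on single libraries. Reads of Fxyd1 per read of Fxyd7 were 5.41 and 4.59 in neonates and 9.89 and 10.3 in adults, 2.02-fold higher in adults (exact permutation p = 0.333, the smallest possible). Reads of Fxyd1 per read of Fxyd5 were 1.58 and 1.95 in neonates and 2.61 and 2.87 in adults, so the ages were apart in this ratio although the CPM of Fxyd5 overlapped. Fxyd6 lies on chromosome 8 beside Fxyd2. Reads of Fxyd7 per read of Fxyd6 were 0.227 and 0.239 in neonates and 0.142 and 0.126 in adults.

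**Figure D2:**
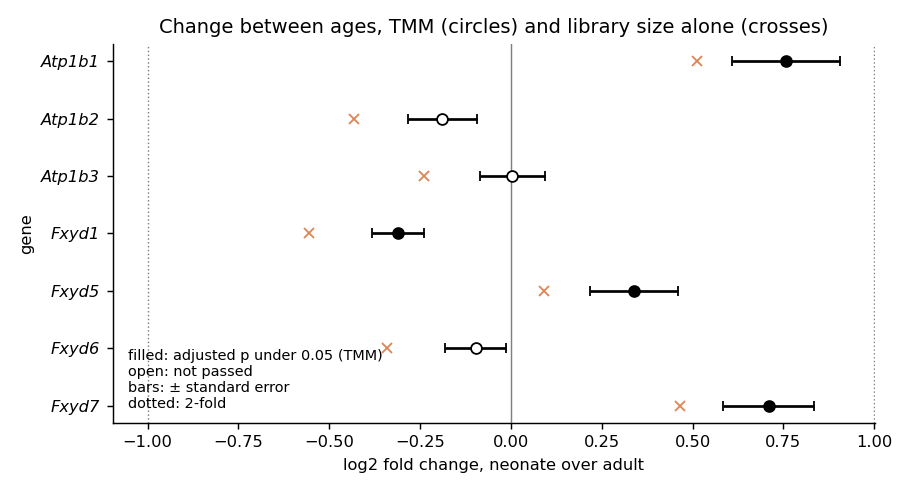
Log2 fold change, neonate over adult, of the 7 genes, as circles with standard errors after TMM normalization and as crosses for library size alone. Filled circles passed an adjusted p of 0.05, and the crosses lie to the left of the circles for every gene, which takes Fxyd5 close to 0 and Atp1b3 below 0.

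Counted together, 3 of the 7 genes passed the test toward neonates and 1 toward adults, at an adjusted p of less than 0.05. Of all genes tested, 31.2% were higher and 31.1% lower by the same rule, so 4 calls among 7 genes lie near the background. By library size alone 2 were higher and 3 lower, while of all called genes 30.1% were then higher in place of 50.1%. The median log2 fold change of the 7 genes was 0.0039 beside -0.0029 over all genes. None passed with a fold change of at least 2, which 7.68% of all genes did toward neonates and 13.2% toward adults. Plain CPM of the ages did not overlap for 6 of the 7, as for 83.1% of all genes.

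Atp1b1, Fxyd1 and Fxyd7 passed in each of 13 alternative analyses, with log2 fold changes from 0.51 to 0.96, from -0.56 to -0.28 and from 0.47 to 0.82.

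Reads of the 4 FXYD genes per read of the 3 β subunits were 0.352 and 0.371 in neonates and 0.416 and 0.498 in adults, 1.26-fold higher in adults (exact permutation p = 0.333, the smallest possible). Read ratios of genes with unequal lengths are not ratios of molecules, and their change between ages is the quantity given.

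**Figure D3:**
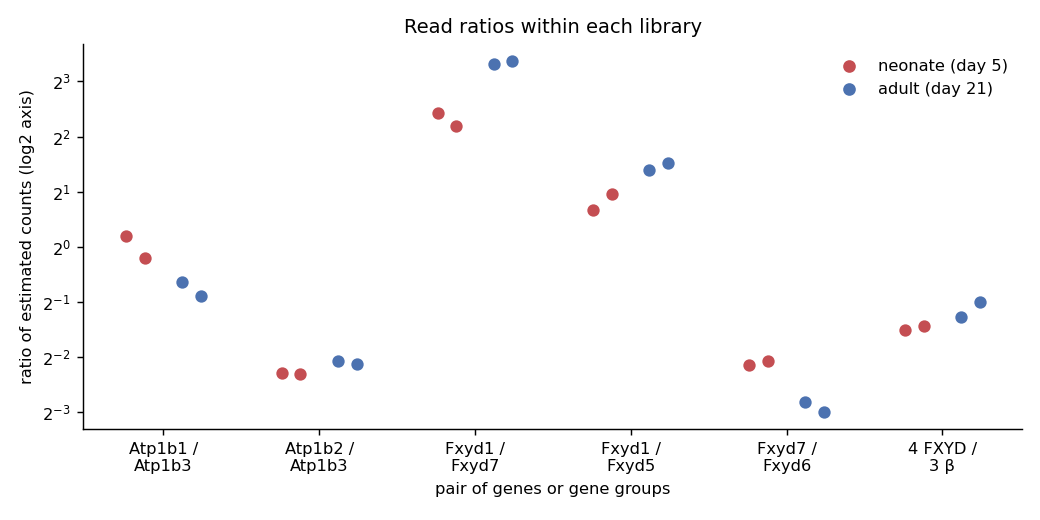
Ratios of estimated counts within each library on a log2 axis, for neonates (red) and adults (blue), with replicate 1 left of replicate 2 in each age. The ages are apart in all 6 ratios, and Fxyd1 per Fxyd7 lies near 5 in neonates and near 10 in adults.

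Of the other β and FXYD genes, Fxyd3 alone reached the level needed for testing, at 0.66 and 1.35 CPM in neonates and 1.54 and 1.19 CPM in adults (log2 fold change -0.20, standard error 0.44, adjusted p = 0.71 by edgeR). Atp1b4, a relative of the β subunits found in muscle, was at 0.46 and 0.52 CPM in neonates and 0.16 and 0.06 CPM in adults. Fxyd2, the γ subunit of the kidney pump, was at most at 0.25 CPM. Fxyd4, a kidney and colon FXYD protein, had 0 counts in all 4. A count of 0 allows at most 3 counts, or 0.0760 to 0.0827 CPM, counting error only. The related proton pump genes Atp4a, Atp4b and Atp12a of stomach and colon were at most at 0.18 CPM and were not tested.

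Of 14 genes listed as binding or regulating the pump, 11 were tested, of which 3 were higher and 8 lower in neonates, where 31.2% of all genes were higher and 31.1% lower. Their median was -0.46 on the log2 scale beside -0.0029 over all genes, and the counts by library size alone were the same. The 3 higher genes were Nkain4, a membrane protein that binds the β subunit, at 1.12 (17.3 and 18.8 CPM against 9.08 and 10.6 CPM), agrin (Agrn), an extracellular proteoglycan that also binds the pump, at 1.08 (627 and 624 CPM against 340 and 363 CPM), and the kinase Wnk4 at 1.04. Their adjusted p by edgeR ran from 1.6e-05 for Agrn to 0.00017 for Nkain4. The 3 with the largest change toward adults were phospholamban (Pln), known for regulating the calcium pump of the reticulum, at -2.36 (2.51 and 1.30 CPM against 10.3 and 13.0 CPM), the kinase Sgk3 at -1.92 and Nkain2 at -1.71. Without Pln, left out after its values were seen, 3 of 10 were higher and 7 lower, with a median of -0.41. Sgk1, a kinase that raises pump and channel number at the surface, was at -0.50 (129 and 158 CPM against 248 and 232 CPM, adjusted p = 0.0017 by edgeR).

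Of 25 ion and solute transporters listed as users of the sodium gradient, 23 were tested, of which 3 were higher, 12 were lower and 8 did not pass, with a median of -0.42, and by library size alone 3 were higher and 15 lower. Called genes were thus 15 of 23, and of all genes 31.2% were called higher and 31.1% lower, which is near the same total. The sodium-calcium exchanger Slc8a1 had 0.94 and 0.83 CPM in neonates and 9.05 and 8.90 CPM in adults, at -3.09 (standard error 0.27, adjusted p = 2.5e-05 by edgeR). Slc24a2, a potassium-dependent exchanger, was at -3.82 with counts near the floor in neonates (0.35 and 0 CPM against 3.49 and 2.62 CPM), and the taurine transporter Slc6a6 at -2.03 (14.3 and 12.2 CPM against 57.1 and 71.6 CPM). Toward neonates, the sodium-hydrogen exchanger Slc9a5 had 18.6 and 22.5 CPM against 1.80 and 2.92 CPM, at 3.37 (standard error 0.23, adjusted p = 8.0e-06 by edgeR). The sodium-chloride cotransporter Slc12a3 followed at 1.65 and Slc12a4, which is on the list but carries potassium with chloride and no sodium, at 0.71.

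**Figure D4:**
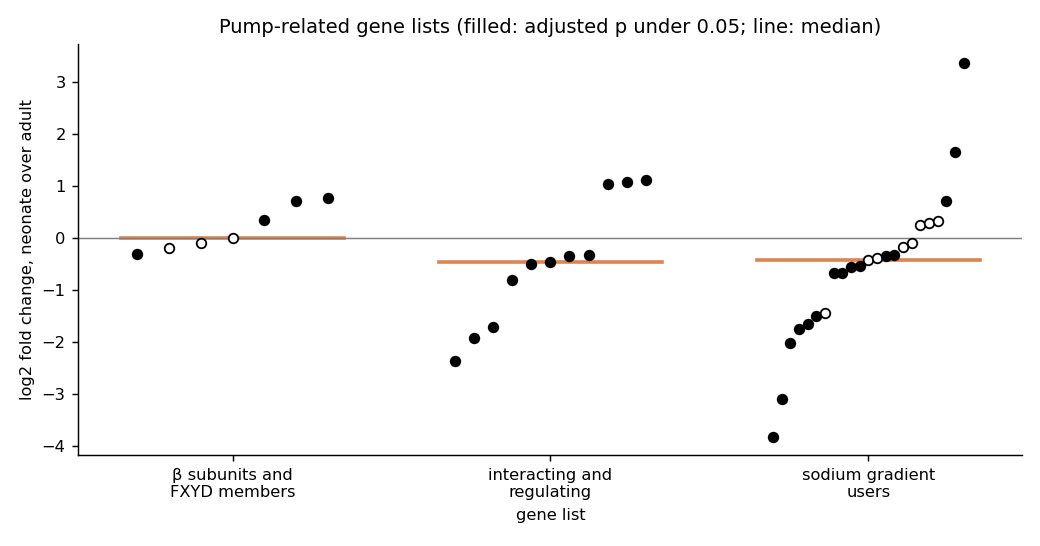
Log2 fold change, neonate over adult, of every tested gene in 3 lists, with the genes of a list sorted from low to high, filled where the adjusted p was under 0.05, and a line at the median. The 7 β subunit and FXYD genes stay within 1 log2 unit of 0, while genes listed as sodium gradient users reach beyond 2 on the log2 scale. Among the genes listed as regulators only Pln does so, at -2.36, and Sgk3 follows at -1.92.

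Neuronal markers moved with age in the direction of Atp1b1 and Fxyd7. Of 10 such genes, 9 were higher in neonates and the remaining gene, Snap25, did not pass, with summed levels of 2967 and 2811 CPM in neonates and 2441 and 2035 CPM in adults, and none was at 0. By library size alone 8 were higher and 1 lower. The summed level and Atp1b1 ranked the 4 libraries in the same order, while Fxyd7 did not. The study describes glomus cells as being of neuronal origin, and which cells the RNA of these markers came from was not tested. The part of these markers in the changes of Atp1b1 and Fxyd7 was not tested either. Glomus cell markers, which summed to 8005 and 7048 CPM in neonates and 10770 and 8579 CPM in adults, gave no single direction. Of 15, 6 were higher and 5 lower in neonates (3 and 5 by library size alone). Much of the higher sum in adults lay in Epas1, at 1568 and 1760 CPM in neonates and 4067 and 2982 CPM in adults. Glial markers summed to 1217 CPM in neonate replicate 1 and to between 2289 and 2487 CPM in the other libraries, with 3 of 10 higher and 3 lower in neonates (1 and 4 by library size alone), none at 0, and their part in the level of Atp1b2 was not tested. Of 7 fibroblast markers 0 were higher and 4 lower in neonates, and by library size alone 0 and 7. Endothelial markers had 2 of 9 higher and 4 lower (0 and 5 by library size alone), and macrophage markers 1 of 8 higher and 6 lower (0 and 6). Adipocyte markers had 1 of 6 higher and 4 lower (0 and 4 by library size alone), and lymphocyte markers 1 of 2 higher and 0 lower (0 and 0).

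The genes whose pattern over the 4 libraries lay nearest to that of each member were found by the Euclidean distance of centred log2 CPM. They were taken from the genes tested, with the members and genes without a symbol of their own left out. For Atp1b1 they were Sncb (distance 0.043) and Gng3 (0.078). For Atp1b2 they were Ranbp9 and Dyrk1b, for Atp1b3 Tnpo2 and Ube2z, for Fxyd1 Szrd1 and Nfkb1, for Fxyd5 Ndp and G6pc3, for Fxyd6 Jak2, and for Fxyd7 Mmel1 and Zc3h8, at distances from 0.0065 to 0.049. With 4 libraries and so many genes to choose from, such nearness is a description only.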

How the data were processed

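The 4 libraries were grouped by age as the sample titles give it. After trimming and mapping with STAR, the authors quantified genes with Salmon (1.5.2, with build Rnor_6.0, in the submitters' processing notes) and deposited estimated counts per gene, which are not normalized. Here counts were rounded to whole numbers. Genes annotated in RefSeq as other than protein-coding, matched by symbol, were removed (636 of 32883), and the 13843 genes reaching 1 CPM in 2 or more of the libraries were tested with edgeR 4.0.16 (R 4.3.3) after TMM normalization, without covariates. The standard error is the log2 fold change divided by the square root of the quasi-likelihood F. Alternatives used RLE factors, library size alone, TMM without mitochondrial and ribosomal genes, DESeq2 1.42.0, limma-voom 3.58.1, other filters, all genes, a replicate block and each library left out in turn. On simulated data of 13652 genes, 190 of 198 changed genes were recovered (90 of 98 at 2-fold), with 6 false calls. Far fewer genes changed there than in these data, where 31.2% were called higher and 31.1% lower. The simulation therefore cannot tell how the scaling behaves when so many genes change. The members and gene lists were chosen with earlier results of these data known. All 7 members are named, with other β and FXYD genes, the 3 largest called changes per direction in the longer lists and up to 2 nearest patterns per member, and some genes that this rule names are not reported here. Sgk1 was named after its values were seen. Marker genes Myh1, Myh2, Pecam1 and Col1a2 and the transporter Slc5a3 were not analysed here.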

Additional observations from a re-analysis of the deposited data

How the results depend on the processing

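Of 91 alternative values of the 7 genes (13 each), 77 kept their direction and their side of the threshold, and no alternative put a member past 2-fold. Library size alone gave -0.43 for Atp1b2 and -0.34 for Fxyd6, which then passed, 0.0908 for Fxyd5, which lost its call, and -0.24 for Atp1b3, a change of sign. Without a filter on low counts Atp1b3 was at -0.0215 and Fxyd5 at 0.31, and with a mean of at least 5 CPM Atp1b3 was at -0.0321 and Fxyd5 at 0.30, with Fxyd5 not passing in either (adjusted p = 0.063 and 0.056 by edgeR). Leaving out each library in turn gave -0.32 to -0.11 for Atp1b2, which passed without adult replicate 2, -0.0987 to 0.0573 for Atp1b3, and 0.17 to 0.51 for Fxyd5. The cause of these differences between settings was not tested. Between 3 and 5 members passed under all alternatives, 4 under the replicate block, where Atp1b1 was at 0.76 and no member changed its call. Deviations of same-numbered libraries had a correlation of -0.015 across genes, so the numbers were not taken as pairs. Over all genes, 1063 were higher and 1822 lower in neonates by at least 2-fold, against 705 and 2549 by library size alone and 656 and 1168 with a mean of at least 5 CPM, where fewer genes were tested.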
